A study of Mus musculus with 9 samples.

Results

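The genes described here are the 4 pore-forming subunits of the AMPA receptor (Gria1, Gria2, Gria3 and Gria4) and 5 of its auxiliary proteins (Cacng2, Cacng3, Cacng8, Cnih2 and Cnih3). They were chosen by name, with earlier results of these data known. Each matched 1 row of the deposited table by Ensembl identifier without its version number, giving 9 of the 22255 rows. RNA had been taken from synaptoneurosomes, a tissue fraction enriched in pinched-off synapses, prepared from frozen hippocampus. Samples came from Fmr1 KO mice of strain C57Bl/6J, and wild-type samples are not analysed here. The treated group had received AM6545 (n = 4, title letters A, B, C and E), which blocks the cannabinoid receptor CB1 and enters the brain poorly, and the control group had received vehicle (n = 5, title letters A to E). Both groups thus carry the Fmr1 knockout, which removes the RNA-binding protein FMRP and models fragile X syndrome. The dosing is described only as sub-chronic, and the labels used here give no dose, age or sex and do not say whether a sample is 1 animal. The comparison asks whether peripheral CB1 blockade left a different set of transcripts at hippocampal synapses.

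AMPA receptors are tetramers of Gria-encoded subunits and carry most fast excitatory transmission in the hippocampus. The subunit that Gria2 encodes, once its transcript has been edited by the enzyme ADARB1, keeps calcium out of the channel. Receptors reach and stay at synapses with auxiliary proteins, among them the transmembrane AMPA receptor regulatory proteins (TARPs, encoded by Cacng genes) and the cornichons (encoded by Cnih genes), which also slow the closing of the channel. Loss of FMRP is known to increase the removal of AMPA receptors from the synapse during metabotropic glutamate receptor signalling.

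Total counts ran from 17628922 to 27263393 per sample, and no pair of samples agreed within sampling noise. Fmr1 (ENSMUSG00000000838.18), the gene targeted in the knockout, had 199 to 310 counts in a sample. Its level was 10.1 ± 0.754 CPM with AM6545 (SD, n = 4) and 11.7 ± 1.18 CPM with vehicle (SD, n = 5). CPM are counts scaled to a common library size, after adjusting libraries with edgeR's TMM factors. Without wild-type samples these counts cannot be set against an intact gene. Excitatory neuron markers summed to between 2179 and 2623 CPM in every sample, with the vesicular glutamate transporter gene Slc17a7 at 824 CPM or more. Oligodendrocyte markers were also abundant, at 10296 to 21912 CPM summed, whereas the cerebellar granule cell gene Gabra6 had no counts in 7 of 9 samples. Choroid plexus markers ranged most, with a summed 46.3 CPM in the lowest sample (vehicle C) and 4352 CPM in the highest (vehicle D). All 5 of them had a log2 fold change below 0, with a median of -1.7 and 0 past the adjusted threshold. Their sum was 58.2 to 926 CPM in AM6545 samples, inside the vehicle range, and its part in the values of the AMPA receptor genes was not tested.

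No AMPA receptor gene passed the test for a difference between AM6545 and vehicle. All 9 passed the filter on low counts. By edgeR's quasi-likelihood test 0 of 9 had an adjusted p under 0.05, against a background of 0% (0 of 14512 genes tested). Unadjusted p-values under 0.05 were found for 0 of 9 members, where the background was 7.21%. No member had groups that did not overlap in CPM, against 1.45% of all tested genes. Over all genes DESeq2 and limma-voom also gave 0 past the adjusted threshold, with 1121 and 870 genes at an unadjusted p under 0.05 against 1047 by edgeR. Nothing in the labels says that samples came from separate animals, so p-values measure the spread between these samples, which may be technical. The log2 fold change was above 0 for 7 members and below 0 for 2, with a median of 0.051. Over all tested genes 48.2% were above 0 and 51.8% below, and the median was -0.009. In bulk RNA of this kind, fewer cells or synapses of a type and less RNA in each cannot be told apart.

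Gria1 (ENSMUSG00000020524.17) encodes the subunit whose delivery to synapses is a step of hippocampal long-term potentiation. It was at 632, 678, 807 and 797 CPM in AM6545 A, B, C and E. In vehicle A to E it was at 669, 679, 571, 720 and 576 CPM. AM6545 C and E lay above every vehicle sample, while AM6545 A and B lay inside the vehicle range. The group levels were 728 ± 87.1 CPM with AM6545 (SD, n = 4) and 643 ± 66.1 CPM with vehicle (SD, n = 5), differing by 0.18 on the log2 scale (SE 0.12, edgeR adjusted p = 0.677). The 95% interval of the difference ran from -0.07 to 0.43, so a change of up to 1.35-fold upward or to 0.952 of the vehicle level downward lies within it.

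Gria2 (ENSMUSG00000033981.15) had the most counts of the 9 genes, from 25437 to 50492 in a sample. Its level was 1454, 1347, 1912 and 2006 CPM in AM6545 A, B, C and E. In vehicle A to E it was 1470, 1593, 1380, 1713 and 1381 CPM. The same pair of AM6545 samples, C and E, stood above the vehicle range, and AM6545 B was the lowest of all 9. The group levels of 1680 ± 327.5 CPM with AM6545 (SD, n = 4) and 1507 ± 144 CPM with vehicle (SD, n = 5) gave a log2 fold change of 0.16 (SE 0.14, edgeR adjusted p = 0.747). This value rested on single samples: it was 0.06 without AM6545 E and 0.25 without AM6545 B.

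Gria3 (ENSMUSG00000001986.17), an X-linked gene whose subunit pairs mainly with that of Gria2, followed Gria2 closely. It was at 213, 210, 286 and 307 CPM in AM6545 A, B, C and E. The vehicle samples A to E had 221, 234, 209, 268 and 217 CPM. Again AM6545 C and E were the 2 highest samples, vehicle D came next, and AM6545 A and B were near the bottom of the vehicle range. It differed by 0.15 on the log2 scale (SE 0.13, edgeR adjusted p = 0.744). It was 0.042 without AM6545 E and was 0.23 without AM6545 B.

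Gria4 (ENSMUSG00000025892.17), which in the adult hippocampus is known mainly from inhibitory interneurons, had far fewer counts, from 727 to 1560 in a sample. Its level was 49.0, 43.7, 50.3 and 62.0 CPM in AM6545 A, B, C and E. In vehicle A to E it was 42.0, 49.4, 56.9, 47.0 and 46.9 CPM. AM6545 E was the highest sample and vehicle A the lowest, with the other samples of both groups intermixed. The log2 fold change of 0.081 (SE 0.12, edgeR adjusted p = 0.851) was -0.024 without AM6545 E.

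**Figure D1:**
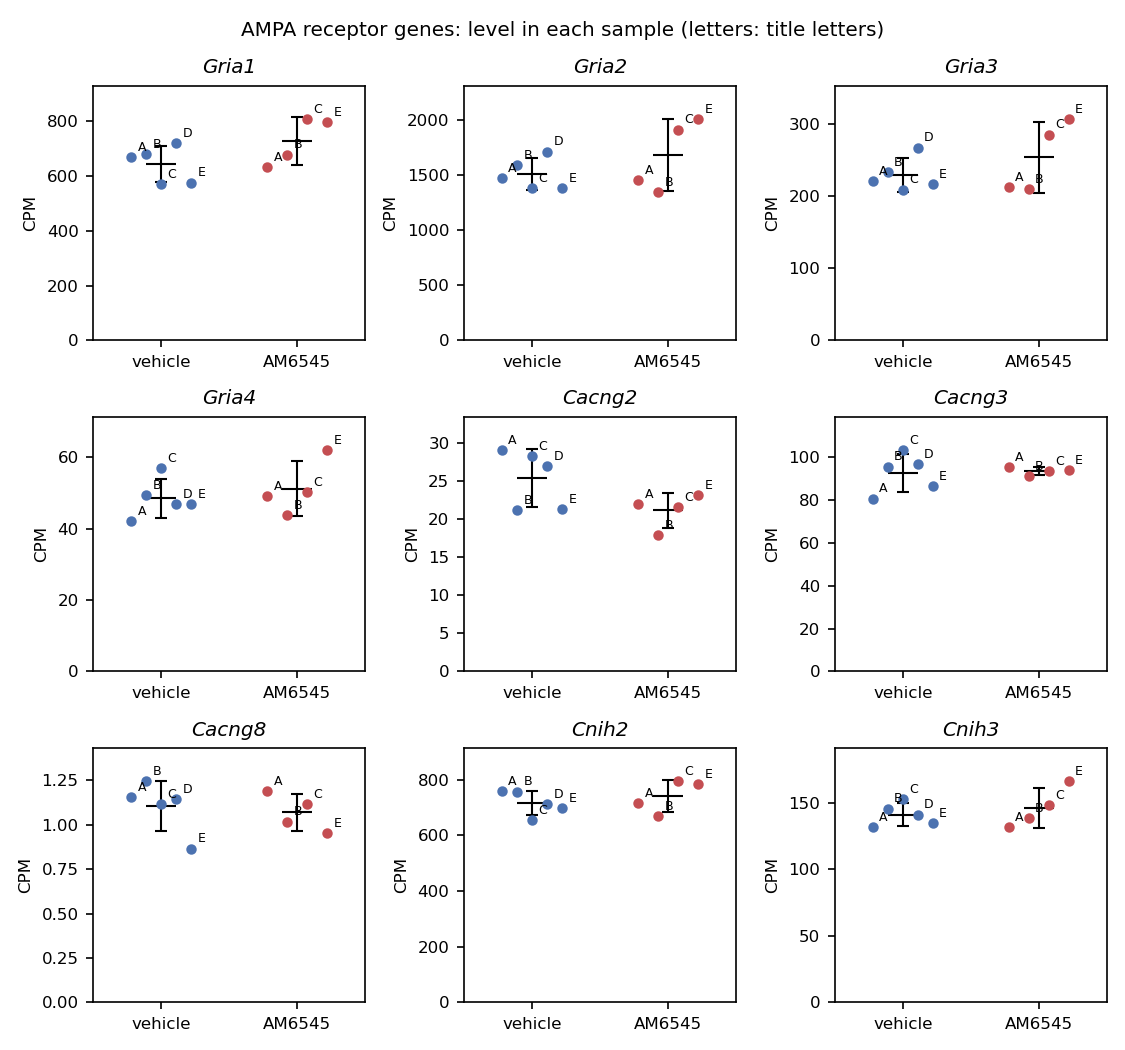
Level of each AMPA receptor gene in CPM (vertical axes, from 0) in the 5 vehicle and 4 AM6545 samples. Points are samples with their title letters, and bars give the mean and SD. The groups overlap for all 9 genes, and AM6545 C and E are the 2 highest samples for Gria1, Gria2 and Gria3.

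Among the TARPs, Cacng2 (ENSMUSG00000019146.3) encodes stargazin, the founding member, which tethers the receptor to postsynaptic scaffolds. It was at 21.97, 17.9, 21.5 and 23.1 CPM in AM6545 A, B, C and E. In vehicle A to E it was at 29.1, 21.2, 28.3, 27.0 and 21.3 CPM. All 4 AM6545 samples lay below the vehicle mean, but vehicle B and E lay inside the AM6545 range. The group levels were 21.1 ± 2.25 CPM with AM6545 (SD, n = 4) and 25.4 ± 3.83 CPM with vehicle (SD, n = 5). The log2 fold change was -0.26 (SE 0.13), with an unadjusted p of 0.0552 and an edgeR adjusted p of 0.653. It had the smallest p of the members, and its 95% interval ran from -0.53 to 0.01. Its direction was the same in all 18 alternative settings, where the log2 fold change ran from -0.32 to -0.19 and the adjusted p from 0.332 to 0.920. In the reference annotation the exons of Cacng2 overlap an antisense gene, A730060N03Rik, and 6.45% of its 31-base stretches also occur in transcripts of other genes. The strand setting is not given in the sources used here, so part of this count is uncertain.

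Interneuron markers were read beside Cacng2, because stargazin is also made in inhibitory neurons. Of the 7 markers 3 had a log2 fold change above 0 and 4 below, and 0 passed the adjusted threshold. Their summed level was 700 to 838 CPM in AM6545 samples and 740 to 859 CPM in vehicle samples, so the groups overlapped. Pvalb, a calcium buffer of fast-spiking interneurons, was at 17.4 ± 2.27 CPM with AM6545 (SD, n = 4) and 22.4 ± 5.68 CPM with vehicle (SD, n = 5). The neuropeptide gene Sst was at 182 ± 12.4 CPM with AM6545 (SD, n = 4) and at 217 ± 37.1 CPM with vehicle (SD, n = 5). For Pvalb the log2 fold change was -0.36 and for Sst it was -0.26, each with an edgeR adjusted p of 0.653. That is the smallest adjusted p of all 14512 genes tested, so the same value for Cacng2 marks no likeness. The neuropeptide gene Vip and the transcription factor gene Lhx6 were at -0.14 and -0.091. The genes shared by inhibitory neurons at large were above 0: Gad1 and Gad2, which encode the enzymes that make GABA, at 0.15 and 0.11, and Slc32a1, its vesicular transporter gene, at 0.23 (edgeR adjusted p from 0.717 to 0.757). The part of these cells in the Cacng2 value was not tested.

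Cacng3 (ENSMUSG00000066189.10) encodes another type I TARP of forebrain neurons. It was between 91.2 and 95.4 CPM in the 4 AM6545 samples, and at 80.7, 95.7, 103, 96.7 and 86.4 CPM in vehicle A to E. The AM6545 samples all sat near the middle of the wider vehicle range. Its difference on the log2 scale was 0.015 (SE 0.09, edgeR adjusted p = 0.969), and its 95% interval, from 0.882-fold to 1.16-fold, was the narrowest of the members.

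Cacng8 (ENSMUSG00000053395.16) encodes the TARP that is best known as the main one of hippocampal pyramidal cells, but it had only 20 to 34 counts in a sample. Its level was 1.19, 1.02, 1.12 and 0.953 CPM in AM6545 A, B, C and E. In vehicle A to E it was 1.16, 1.24, 1.12, 1.14 and 0.866 CPM. All samples were thus close to 1 CPM, in both groups. A log2 fold change of -0.05 was estimated (SE 0.23, edgeR adjusted p = 0.959). Its interval, from 0.682-fold to 1.37-fold, was the widest of the members, and differences within that range are not excluded.

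The cornichons form a channel-associated pair in forebrain neurons. Cnih2 (ENSMUSG00000024873.8) was at 717, 670, 794 and 783 CPM in AM6545 A, B, C and E, and at 758, 756, 654, 711 and 697 CPM in vehicle A to E. AM6545 C and E were again the highest samples, though only just above vehicle A and B. Between groups the log2 fold change was 0.051 (SE 0.10, edgeR adjusted p = 0.898). In the reference annotation its exons overlap those of Yif1a on the opposite strand. Of its 31-base stretches, 0% also occur in transcripts of another gene on either strand. Any effect of the overlap on its count was not tested.

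Cnih3 (ENSMUSG00000026514.15) was at 131, 138, 148 and 166 CPM in AM6545 A, B, C and E, and at 131, 145, 153, 141 and 135 CPM in vehicle A to E. AM6545 E was the highest sample, as it was for Gria4, and the other 3 AM6545 samples lay within the vehicle range. The log2 fold change was 0.048 (SE 0.10, edgeR adjusted p = 0.897), and it was -0.02 without AM6545 E.

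**Figure D2:**
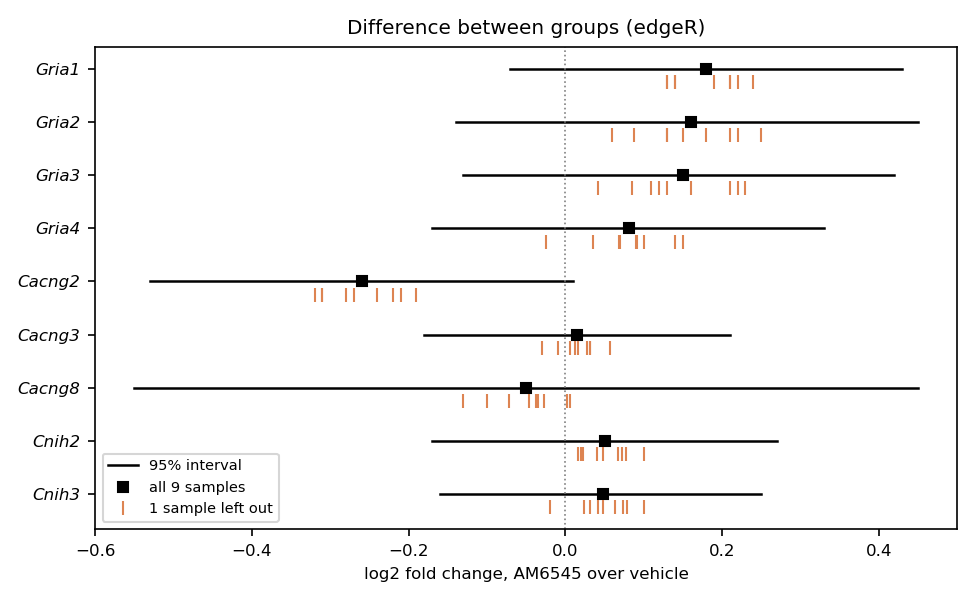
Log2 fold change of AM6545 over vehicle for each member (squares), with its 95% interval from edgeR (lines) and the value with each sample left out in turn (orange ticks). Every interval crosses 0; that of Cacng2, from -0.53 to 0.01, has the lowest upper end.

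Levels of different genes were compared only per length, as CPM per kilobase of the median protein-coding transcript. On this scale Cnih2 was the highest of the 9, at 541 CPM per kilobase over all samples, which placed it at the 99th percentile of 14438 tested genes with a known length. Gria2 came next at 220, then Gria1 at 127, Cnih3 at 110.3, Cacng3 at 102 and Gria3 at 83.7 CPM per kilobase. Gria4 was at 9.41, near the middle of all genes at the 51.1 percentile, and Cacng2 at 4.26 was at the 36th percentile. Cacng8 was last, at 0.789 CPM per kilobase and the 13th percentile. Neighbours in the middle of this order were not separated by their spread: Cnih3 ran from 101 to 128 over the samples, Cacng3 from 88.2 to 113 and Gria3 from 72.9 to 107. The order also depends on the transcript chosen. For Cacng3 the median length, 914 bases, was shorter than its longest coding sequence, 945 bases, so it does not cover that whole sequence. With the longest transcript in place of the median one, 2777 bases for this gene, Cacng3 fell to 33.5 CPM per kilobase, below Gria3 at 46.3. Cnih2 and Gria2 stayed first and second, and Cacng8 last, with either of these lengths and with coding length.

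The make-up of the Gria RNA was compared within samples, where scaling between libraries drops out. These are shares of RNA, and receptor protein was not measured here. Gria2 made up 49.8% ± 1.64 of the summed Gria level per length with AM6545 (SD, n = 4) and 50.1% ± 0.417 with vehicle (SD, n = 5). Gria1 made up 29.2% ± 1.999 and 28.6% ± 0.923, Gria3 18.9% ± 0.534 and 19.1% ± 0.540, and Gria4 2.09% ± 0.204 and 2.22% ± 0.383. The shares of both groups overlapped for all 4 genes, and each of the 4 differences between group means was smaller than the SD of the AM6545 samples. The vehicle samples were nearly alike in their Gria2 share, from 49.4% to 50.5%, while AM6545 samples ran from 47.4% in B to 51.1% in E. AM6545 B also had the highest Gria1 share, at 31.9%, and AM6545 E the lowest, at 27.2%. AM6545 B and E thus sat at opposite ends for Gria1 and Gria2, and both lay outside the vehicle range. These shares were not tested, and their sizes depend on the length used. With coding lengths Gria2 held 62.4% and Gria3 9.42% over all 9 samples, and with the longest transcripts 46.1% and 13.97%.

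**Figure D3:**
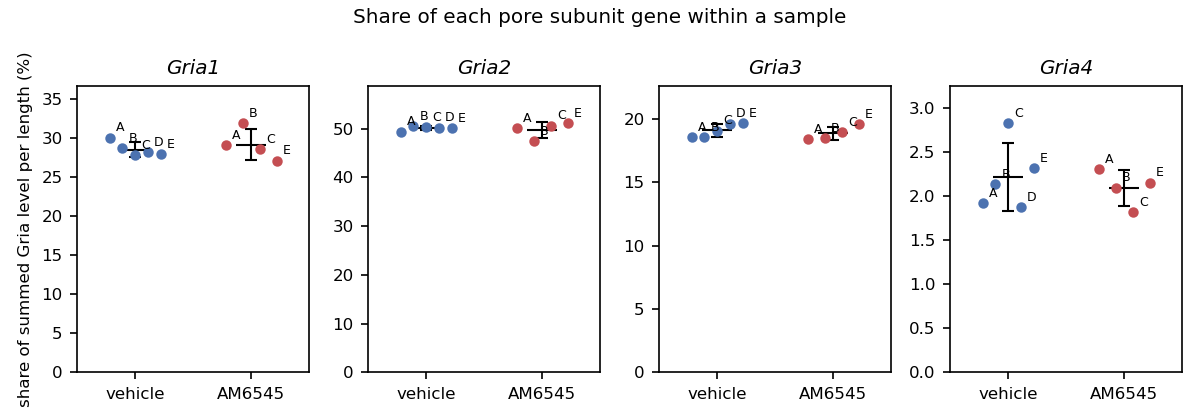
Share of each pore subunit gene in the summed Gria level per length of a sample (vertical axes in percent, from 0, with a different scale in each panel). Points are samples with their title letters, and bars give the mean and SD; Gria2 is near 50% in every vehicle sample, and AM6545 B and E lie furthest apart for Gria1.

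Other TARP genes, such as Cacng5 and Cacng7, were not counted in the shares that follow. Of the 3 TARP genes among the members, Cacng3 held 95.7% ± 0.312 of their summed level per length with AM6545 (SD, n = 4). With vehicle it held 94.9% ± 0.837 (SD, n = 5). With AM6545 and vehicle, Cacng2 held 3.58% ± 0.319 and 4.34% ± 0.780, and Cacng8 0.724% ± 0.0641 and 0.753% ± 0.103. The Cacng3 level was divided by a median length of 914 bases, shorter than its longest coding sequence of 945 bases, and that of Cacng2 by 5510 bases. The sizes of the shares depend on the length used. Over all 9 samples the Cacng3 share was 87.4% with the longest transcripts and 79.7% with coding lengths, and the Cacng2 share 11.1% and 19.6%. The ratio of Cnih2 to Cnih3 was 4.93 ± 0.357 with AM6545 (SD, n = 4) and 4.93 ± 0.516 with vehicle (SD, n = 5), and over all samples it was 10.1 with the longest transcripts and 5.96 with coding lengths. The ratio of Cacng2 to Gria2 per length was 0.0197, 0.0174, 0.0147 and 0.0151 in AM6545 A, B, C and E, and ran from 0.0174 to 0.0268 in vehicle samples. For this ratio AM6545 B, C and E lay below all vehicle samples, B only just, and AM6545 A was inside the vehicle range. This ratio was not planned and was not tested. It sets Cacng2, the member with the lowest log2 fold change, against a gene whose value was higher.

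Gria1, Gria2 and Gria3 varied together across the 9 samples. For all 36 pairs of members, correlations of log2 CPM were computed with exact permutation tests. Gria2 and Gria3 had a Pearson r of 0.98 (two-sided exact permutation p = 4.13e-05, adjusted over the 36 pairs p = 0.00149) and a Spearman rho of 0.97 (exact permutation p = 0.000165, adjusted p = 0.00595). Without AM6545 C and E, the 2 samples farthest from the median of Gria2, r was 0.95. In every pair the samples left out were chosen by a single gene, the one that comes first in the list of members. For Gria1 with Gria2 the Pearson r was 0.89 (exact permutation p = 0.00143, adjusted p = 0.0129) and rho was 0.82 (exact permutation p = 0.0108, adjusted p = 0.0646). For Gria1 with Gria3, r was 0.88 (exact permutation p = 0.00111, adjusted p = 0.0129) and rho was 0.87 (exact permutation p = 0.00451, adjusted p = 0.0541). Leaving out AM6545 C and vehicle C, the 2 samples farthest from the median of Gria1, r was 0.85 and 0.84 for these pairs. AM6545 E, the highest sample for Gria2 and Gria3, stayed in.

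Gria4 correlated most closely with Cnih3. The r of Gria4 with Cnih3 was 0.88 (exact permutation p = 0.00144, adjusted p = 0.0129) and its rho 0.88 (exact permutation p = 0.00308, adjusted p = 0.0541), with r at 0.69 once AM6545 E and vehicle A were left out. With the other pore subunit genes its correlations did not pass the threshold. Its r was 0.20 with Gria1 (exact permutation p = 0.616, adjusted p = 0.992; rho 0.28, exact permutation p = 0.463, adjusted p = 0.926), and 0.58 without AM6545 C and vehicle C. It was 0.51 with Gria2 (exact permutation p = 0.157, adjusted p = 0.469; rho 0.47, exact permutation p = 0.213, adjusted p = 0.765) and 0.49 with Gria3 (exact permutation p = 0.170, adjusted p = 0.469; rho 0.33, exact permutation p = 0.385, adjusted p = 0.925). Without AM6545 C and E these values were -0.04 and -0.12. The 4 pairs with an adjusted p under 0.05 for Pearson's r were Gria2 with Gria3, Gria1 with Gria2, Gria1 with Gria3 and Gria4 with Cnih3, and 1 pair, Gria2 with Gria3, had it for Spearman's rho. Cacng2 had an r between -0.15 and 0.30 with every other member. All genes of a sample share its library, its scaling and its tissue content. The relations were also computed with the group means removed and samples permuted only within their groups (2880 orders), a test chosen after the data were seen. Gria2 with Gria3 then had an r of 0.98 (exact permutation p = 0.000347, adjusted over the 36 pairs p = 0.0125), the 1 pair with an adjusted p under 0.05. For Gria1 with Gria2, Gria1 with Gria3 and Gria4 with Cnih3, r was 0.88 in each case, with exact permutation p of 0.0177, 0.0115 and 0.00729 and an adjusted p of 0.128 for all 3 pairs. With total counts in place of TMM, r was 0.98 for Gria2 with Gria3 and 0.91 for Gria4 with Cnih3.

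**Figure D4:**
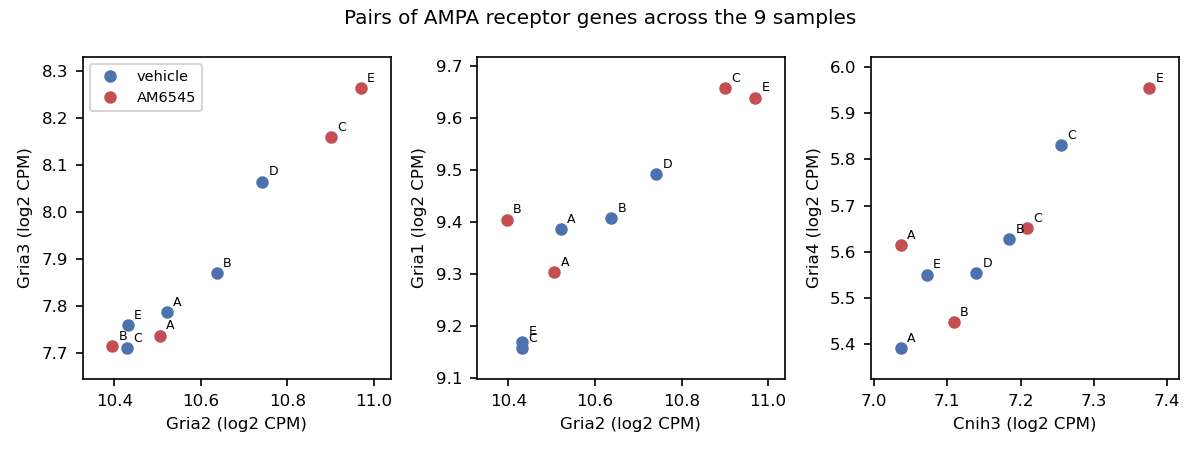
Log2 CPM of 3 pairs of members in the 9 samples (blue, vehicle; red, AM6545; letters are title letters). Gria2 and Gria3 lie along a line (r = 0.98), as do Gria2 and Gria1 more loosely (r = 0.89), and Cnih3 and Gria4 (r = 0.88) rank the samples in another order.

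The genes most like each pore subunit were taken as those with the smallest mean distance of centred log2 CPM over the 9 samples, among 9483 other genes at 10 CPM or more on average. For Gria2 these were Epha7, an ephrin receptor gene (mean distance 0.0215), Gria3 (0.0306) and Nrp1, a semaphorin co-receptor gene (0.0389), where the median gene was at 0.222. For Gria3, Epha7 (0.0283) and Gria2 (0.0306) were among the nearest 3. The nearest to Gria1 were Lrig2 (0.0282), the sorting receptor gene Sorl1 (0.0359) and the synaptotagmin gene Syt12 (0.0394). For Gria4 they were the prohormone convertase gene Pcsk1 (0.0300), Phtf2 (0.0312) and the zinc transporter gene Slc39a10 (0.0337). Gria2 and Gria3 were thus in each other's nearest 3, and no other member was among the nearest 3 of a pore subunit gene.

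Other genes of the AMPA receptor pathway were read by role, 39 in all, of which 38 were tested; the exception was Cacng1, a skeletal muscle gene with at most 2 counts in a sample. By edgeR's quasi-likelihood test 0 of 38 passed the adjusted threshold, against the same background of 0%. At an unadjusted p under 0.05 there was 1 higher gene and 0 lower, where the backgrounds were 3.03% and 4.18%. The log2 fold change was above 0 for 31 and below 0 for 7, with a median of 0.096. Over all genes tested 48.2% were above 0 and 51.8% below, and the median was -0.009. No gene of these lists had groups that did not overlap in CPM, where the background was 1.45%.

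Of the 10 other auxiliary subunits, 8 were above 0 and 2 below. Shisa7, which encodes a CKAMP family protein, was at 31.6 ± 4.83 CPM with AM6545 (SD, n = 4) and at 27.4 ± 4.74 CPM with vehicle (SD, n = 5), differing by 0.21 on the log2 scale. Cacng5, a type II TARP gene, was at 13.1 ± 2.34 CPM with AM6545 (SD, n = 4) and at 11.4 ± 1.47 CPM with vehicle (SD, n = 5), differing by 0.20 on the log2 scale. All 4 genes of receptor assembly in the endoplasmic reticulum were above 0. Of these, Cpt1c is named for having the smallest p. It was at 186 ± 19.1 CPM with AM6545 (SD, n = 4) and at 156 ± 25.7 CPM with vehicle (SD, n = 5). All 4 AM6545 samples exceeded the vehicle mean but only 1 exceeded every vehicle sample, for a log2 fold change of 0.25 (edgeR adjusted p = 0.653). Porcn was at 136 ± 14.1 CPM with AM6545 (SD, n = 4) and at 119 ± 18.8 CPM with vehicle (SD, n = 5), differing by 0.18 on the log2 scale.

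Among 8 trafficking and scaffold partners, 6 were above 0 and 2 below. Grip2, a PDZ protein gene whose product binds the tails of the Gria2 and Gria3 subunits, was scarce, at 2.25 ± 0.391 CPM with AM6545 (SD, n = 4) and at 1.65 ± 0.271 CPM with vehicle (SD, n = 5), differing by 0.45 on the log2 scale (SE 0.21, edgeR adjusted p = 0.653). Gripap1, whose product acts in endosomal recycling of the receptor, had a log2 fold change of 0.17. All 6 genes of signalling at the receptor tails were above 0. Among them Camk2b, a subunit of the kinase that phosphorylates AMPA receptors and TARPs, was at 922 ± 137 CPM with AM6545 (SD, n = 4) and at 751 ± 120 CPM with vehicle (SD, n = 5), differing by 0.29 on the log2 scale.

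The extracellular clustering genes had 4 of 5 above 0. The synaptic adhesion gene Lrrtm1, named for having the smallest p of these, was at 223 ± 15.4 CPM with AM6545 (SD, n = 4) and at 194 ± 17.3 CPM with vehicle (SD, n = 5). All 4 AM6545 samples exceeded the vehicle mean and 2 exceeded every vehicle sample, for a log2 fold change of 0.20 (edgeR adjusted p = 0.653). Nptx2, an activity-regulated pentraxin gene, was at 14.8 ± 0.918 CPM with AM6545 (SD, n = 4) and at 12.2 ± 2.79 CPM with vehicle (SD, n = 5). Adarb1, the gene of the enzyme that edits Gria2 RNA, was at 22.3 ± 0.947 CPM with AM6545 (SD, n = 4) and at 22.2 ± 2.77 CPM with vehicle (SD, n = 5), differing by 0.0061 on the log2 scale. Adar had a log2 fold change of 0.27 (edgeR adjusted p = 0.660). The editing of Gria2 itself cannot be read from gene counts.

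Relatives of the TARPs and cornichons that are not counted as AMPA receptor auxiliary proteins had a log2 fold change below 0 in 2 of 3 cases. Cnih1, a cornichon gene of general cargo export, was at 122 ± 18.8 CPM with AM6545 (SD, n = 4) and at 143 ± 12.2 CPM with vehicle (SD, n = 5), differing by -0.24 on the log2 scale, and Cnih4 differed by -0.21 (each with an edgeR adjusted p of 0.653). The muscle gene Cacng6 had 0.093.

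For comparison, the other ionotropic glutamate receptors showed no call either. Of 7 NMDA receptor genes 6 were tested, all above 0, with a median log2 fold change of 0.19; the other, Grin3b, had at most 4 counts. Grin1, the obligatory NMDA receptor subunit gene, had the smallest p of that list, at 196 ± 24.5 CPM with AM6545 (SD, n = 4) and at 148 ± 25.5 CPM with vehicle (SD, n = 5), differing by 0.41 on the log2 scale (SE 0.13, unadjusted p = 0.0062, edgeR adjusted p = 0.653). Of the 5 kainate receptor genes 4 were above 0, with a median of 0.13, and Grik4 had the smallest p (log2 fold change 0.27, edgeR adjusted p = 0.653). Of all genes tested, 48.2% were above 0. The medians of these lists were not tested against that of the AMPA receptor genes, 0.051.

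**Figure D5:**
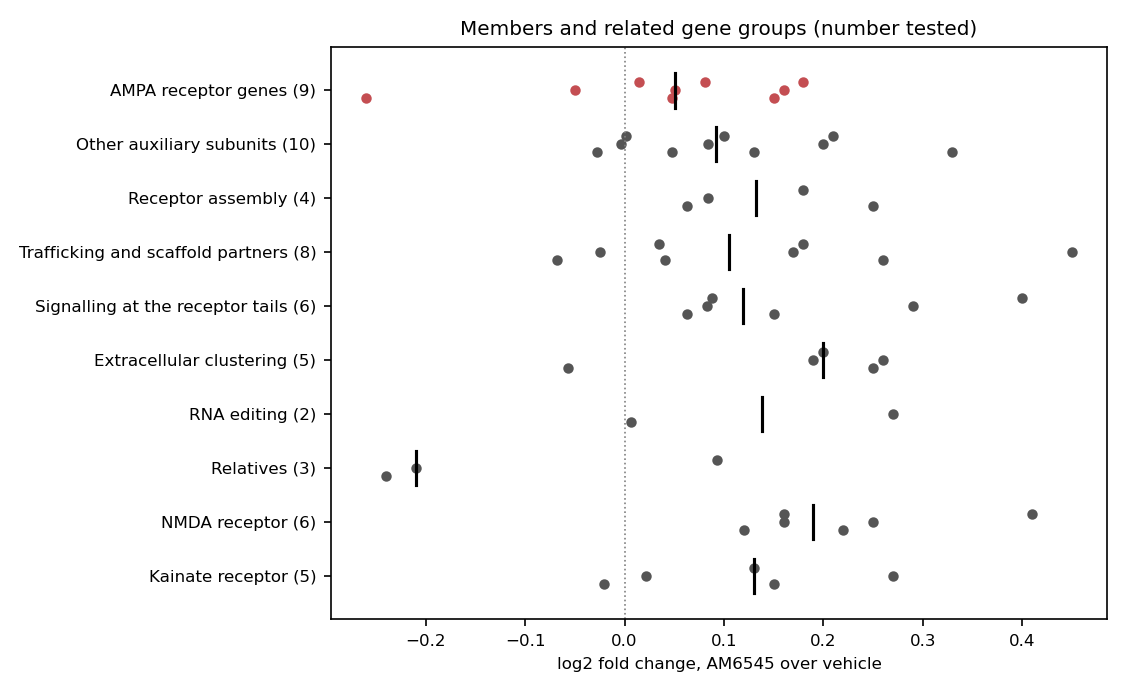
Log2 fold change of AM6545 over vehicle for the AMPA receptor genes (red) and the related gene groups (grey), 1 point per tested gene, with the median of each group as a black line. Of the AMPA receptor genes 7 of 9 lie above 0, and Cacng2, at -0.26, is the lowest gene shown.

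Transcript length was read beside these values, since 4 of 9 members (Gria1, Gria2, Gria4 and Cacng2) are in the group of longest transcripts when tested genes are divided into 5 by length, with 3906 bases or more. The median log2 fold change of all genes was 0.037 in that group and -0.089 in the group of shortest, up to 1137 bases. With each sample's trend of counts with transcript length removed, Gria1 was at 0.14, Gria2 at 0.12, Gria3 at 0.11 and Gria4 at 0.036. On the same scale Cacng2 was at -0.30, Cacng3 at 0.079 (0.015 without the correction), Cacng8 at -0.018, Cnih2 at 0.089 and Cnih3 at 0.09. The correction used median lengths, which for Cacng3 was 914 bases. The adjusted p of the members in that setting ran from 0.705 upward.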

How the data were processed

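The authors deposited a single table of estimated counts per gene for 9 samples, as its values show: none is negative, 56.6% to 69.4% per sample are whole, and totals differ. Salmon 1.3 and DESeq2 1.30, with the builds GRCm39 and mm10, are named per the submitters' processing notes, with no role given. The library kit was SMARTer Ultra Low Input, per the labels' protocols. The annotation release and strand setting are not given in the sources used here. Symbols, transcript lengths, overlaps and shared stretches of 31 bases came from GENCODE M21 (GRCm38), whose version numbers differ from the table's for 22144 identifiers, so no coordinates are given.

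Counts were rounded and filtered with filterByExpr, which left 14512 genes, and scaled by TMM. Groups were compared with edgeR 4.0.16 in R 4.3.3 (quasi-likelihood F-test, Benjamini-Hochberg adjustment over all genes tested, threshold 0.05). The standard error is the absolute log2 fold change over the square root of F. Totals were 17628922 counts or more, yet Cacng8 had only 20 to 34 counts in a sample and the widest interval of the members. The lowest chi-square per degree of freedom between 2 samples was 10.03; no pair agreed within sampling noise. On simulated data, 41.3% of genes changed by 1.5-fold, 79.6% changed by 2-fold and 96.5% changed by 4-fold were recovered among 14383 genes tested. Of the calls, 4.82% were false. Each of the 3 simulated sets held 200 changed genes, and every gene was drawn independently of the others. Variation shared by the genes of a sample was not simulated, so these recovery rates need not hold for the real samples.

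Members and gene lists were chosen with earlier results of these data known. The genes named are the 9 members, Fmr1, the 2 with the smallest p in each pathway group lacking a call, the 1 with the smallest p among NMDA and among kainate receptor genes, defining cell type markers, and the 3 nearest to each Gria gene by centred log2 CPM (prior count 2). A few genes that this rule names are not reported here. The interneuron markers (Pvalb, Sst, Vip, Lhx6, Gad1, Gad2, Slc32a1), Cacng6, Cacng1 and Grin3b are named outside this rule and were chosen after their values were seen. Shares and ratios per length are descriptions with no test, and the ratio of Cacng2 to Gria2 was not planned. Alternatives were other size factors (RLE, upper quartile, none), 2 other filters, DESeq2 1.42.0, limma-voom (limma 3.58.1), a replicate block, a length trend correction (lowess, span 0.3) and each sample left out. Correlations used scipy 1.17.1.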

Additional observations from a re-analysis of the deposited data

How the results depend on the processing

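Over 18 alternatives, 0 of 9 members passed an adjusted p of 0.05 in any setting. The log2 fold changes of Gria1, Gria2, Gria3, Cacng2 and Cnih2 kept their direction in all of them. Those close to 0 did not: with each sample left out in turn Gria4 ran from -0.024 (without AM6545 E) to 0.15, Cnih3 from -0.02 (without AM6545 E) to 0.1, Cacng3 from -0.03 (without vehicle A; -0.0089 without vehicle E) to 0.057, and Cacng8 from -0.13 to 0.0063 (without vehicle B; 0.0023 without AM6545 E). With a sample left out, the count of members below 0 ran from 1 (without vehicle B) to 3. Over all genes the count past the threshold was 1 without AM6545 A, Gm14308, and 0 in the other settings; at an unadjusted p under 0.05 it ran from 496 without vehicle A to 1848 without AM6545 E.

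With group means removed, r was 0.88 and no longer passed the threshold (adjusted p = 0.128) for 3 of the 4 pairs of members that had passed it, all but Gria2 with Gria3.

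Lengths moved the shares most. With coding lengths Gria1, Gria2 and Gria3 held 26.2%, 62.4% and 9.42% of the Gria level. Cacng2 and Cacng3 then held 19.6% and 79.7% of the summed level of the TARP members, and the Cnih2 to Cnih3 ratio was 5.96. With the longest transcripts Gria1 to Gria4 held 37.2%, 46.1%, 13.97% and 2.79%, Cacng2, Cacng3 and Cacng8 held 11.1%, 87.4% and 1.499%, and the ratio was 10.1.

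The title letters do not show that samples were paired: the deviations of same-letter samples correlated at -0.02 (A), 0.04 (B), 0.34 (C) and -0.02 (E), and only AM6545 C correlated best with its own letter. With the letter as a replicate block, 0 genes passed, 759 had an unadjusted p under 0.05, Gria1 was at 0.22 and Cacng2 at -0.23.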

Other observations

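The TARP genes Cacng7 and Cacng8 are neighbours among protein-coding genes in RefSeq (GRCm38.p6), and both were close to the floor in all 9 samples; they are picked out here with their values known. Cacng7, which encodes a type II TARP, had 3 to 15 counts in a sample and stood at the 2.17 percentile of tested genes by level per length. Cacng8 stood at the 13th percentile. Cacng6, the neighbour of Cacng8 on its other side, was at 1.57 to 3.09 CPM and the 21.3 percentile. The protein-coding models of Cacng8 in M21 are up to 1897 bases long, 1269 of them coding, against 5510 and 969 bases for Cacng2. Of the 31-base stretches of Cacng8, 2.64% also occur in another gene. Whether these low counts reflect the RNA, the gene models or the counting was not tested.

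Dixon's test for an outlying sample was applied to the 9 members, Fmr1 and 15 within-sample shares and ratios, in 50 sets of 4 or 5 values. It found 0 at the 95% critical value, where chance gives 2.5.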
